A study of Mus musculus with 26 samples.

Results

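Liver RNA of mice labelled Nr1d1 knockout was compared with liver RNA of control mice at circadian time 0 (CT0), the hour at which the lights would have come on. The comparison rests on 4 of the 26 samples of the series, 2 labelled knockout and 2 control, and on 4 of its 20 RNA-seq libraries. All mice were 8 weeks old, were kept in a cycle of light and dark and then for 2 days in darkness, and ate freely. Controls were C57BL/6 mice, the strain label of the other group reads Nr1d1 knockout, and the labels give neither the allele nor the sex. The labels describe pairs of a knockout and a wild-type mouse, and the knockout was therefore compared with the control of the same replicate number, called pair 1 and pair 2 below. Values are RPKM (reads scaled to transcript length and library size), 1 transcript for each of 22322 gene symbols. Of these, 12755 genes had a mean of at least 0.5 RPKM over the 8 libraries of the Nr1d1 experiment and were tested.

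Nr1d1 encodes REV-ERBα, a heme-binding nuclear receptor that represses transcription by recruiting the corepressor NCoR and the histone deacetylase HDAC3. It competes with the ROR receptors, which activate transcription, for the same DNA element, and this element lies in the promoters of Arntl (which encodes BMAL1) and other clock genes. BMAL1 and CLOCK in turn activate Nr1d1, the Per and Cry repressors and Dbp through E-boxes, which closes the loop. The bZIP activators DBP, TEF and HLF and the repressor NFIL3 share a further site, the D-box, and carry the rhythm into genes of liver metabolism. REV-ERBα in liver is best known for its part in lipid and bile acid metabolism.

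The promoter stretches below show these elements in clock genes picked because a window held a match, whatever their difference at CT0. They come from RefSeq windows of GRCm38.p6 that reach from 250 bases before to 50 bases after each gene's start, searched on both strands for the ROR element (ANTAGGTCA or ANTGGGTCA), the E-box (CACGTG) and the D-box (TTATGTAA, TTACGTAA, TTATGCAA or TTACATAA). The windows were matched by symbol and held 17 of the 20 clock genes of the 4 clock lists used here, and the expression data themselves were mapped to mm9. Capitals mark the motif, each stretch is written in the direction of its gene, and a match is a description of the letters and not a binding site. Arntl, with a ROR element just after its start on the plus strand, is at chr7:113207529-113207557, and Nfil3, with a ROR element on the opposite strand, is at chr13:52981040-52981063. Per1 (an E-box and a D-box) is at chr11:69098771-69098944 on the plus strand, and Per3 (a pair of D-boxes) is at chr4:151044804-151044882 on the minus strand. Cry1 (an E-box) is at chr10:85185097-85185126 on the minus strand, Ciart (an array of E-boxes, named Gm129 in the expression files) is at chr3:95882255-95882356 on the minus strand, and Tef (an E-box) is at chr15:81811264-81811293 on the plus strand.
Arntl: gaaggcagaaAGTAGGTCAgggacggagg
Nfil3: ggcgctcggaacTGACCTACTaac
Per1: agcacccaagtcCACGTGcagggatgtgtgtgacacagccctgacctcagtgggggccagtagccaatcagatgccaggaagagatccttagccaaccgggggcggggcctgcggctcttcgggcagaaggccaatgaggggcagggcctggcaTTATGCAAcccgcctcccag
Per3: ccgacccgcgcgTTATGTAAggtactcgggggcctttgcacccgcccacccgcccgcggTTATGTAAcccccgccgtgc
Cry1: ggtgccggtggtCACGTGgggtgcatgccg
Ciart: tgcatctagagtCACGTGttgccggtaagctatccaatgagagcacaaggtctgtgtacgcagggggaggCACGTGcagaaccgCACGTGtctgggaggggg
Tef: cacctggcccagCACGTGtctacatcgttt

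Among the 17 clock genes with a window, 5 held the E-box in any of their windows, and 7.15% of all 32851 windows held it. Bhlhe41, which is among the 5, is not shown above. Several clock genes have more than a single window, so counts of genes and shares of windows are not directly comparable. The D-box was in 2 of the 17 (1.78% of all windows) and the ROR element also in 2 (1.45% of all windows). The windows of Dbp, Nr1d1, Nr1d2, Rora, Rorb, Clock, Npas2, Cry2 and Hlf held none of these motifs. This says only that these letters are not in those windows.

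The gene named in the label went against it. Nr1d1 stood at 0.374 RPKM in the control and 6.10 RPKM in the library labelled knockout of pair 1, and at 22.0 and 32.9 RPKM in pair 2. The libraries labelled knockout were thus the higher ones in both pairs, 16.3-fold in pair 1 and 1.50-fold in pair 2, with a fitted log2 difference of 1.74 ± 0.64 (SE) and an adjusted p of 0.877. The files hold 1 Nr1d1 transcript and give its value over the whole transcript, so reads from exons that an allele leaves in place would count too, and which exons the allele removes is not given in the sources used here. Thra, the thyroid hormone receptor gene whose end overlaps that of Nr1d1 on the opposite strand, went the other way. It stood at 6.95 RPKM in the control and 3.31 in the labelled knockout of pair 1, and at 40.4 and 15.6 in pair 2, a fitted log2 difference of -1.16 ± 0.20 (SE; unadjusted p = 0.000384, adjusted p = 0.877, limma). The library kit does not mark strand, so reads from the overlap of Nr1d1 and Thra cannot be told apart. The groups are called labelled knockout and control throughout for this reason.

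The pairs differed from each other in ways the groups do not explain. Summed RPKM was 871820 and 735543 in the control and labelled knockout of pair 1 and 2135568 and 2236248 in pair 2. The labelled knockout was therefore compared with the control only within a pair. The libraries of pair 2 alone are described as paired-end. Read totals recovered from the steps of the RPKM values, known up to a common factor, were 8319439 and 5865540 in pair 1 and 31504494 and 30820314 in pair 2. Both ends of a fragment may be counted in pair 2, and genes without recovered reads are left out of the totals. The totals alone therefore do not show how precisely each pair was counted. The summed RPKM of 4 Y-linked genes (Ddx3y, Uty, Eif2s3y and Kdm5d) was 20.56 and 19.10 in pair 1 and 0.00 in both libraries of pair 2, and it lay between 0.00 and 0.17 in the 4 libraries taken at CT12. Female-biased and male-biased liver genes also differed between the control libraries: Sult2a1 stood at 0.460 RPKM in pair 1 and 1500.15 RPKM in pair 2, and Cyp4a12a at 103 and 2.23 RPKM. Within the comparison at CT0, this split cannot be told apart from the replicate number.

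**Figure D1:**
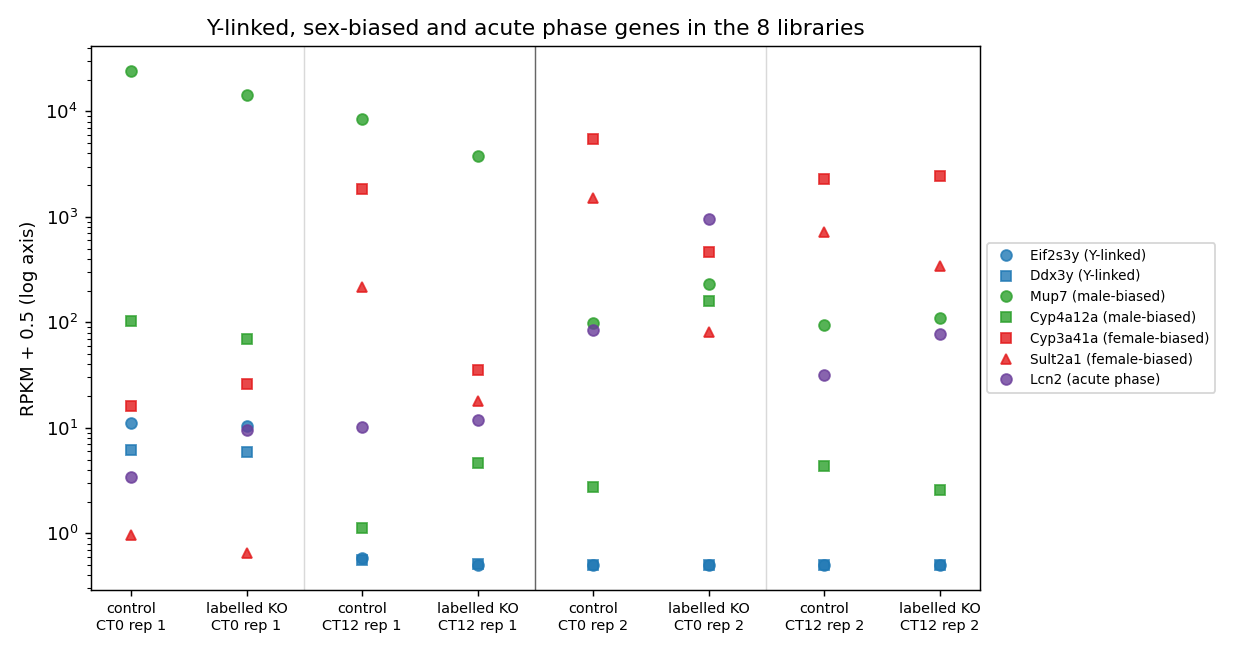
RPKM + 0.5 (log axis) of Y-linked, sex-biased and acute phase genes in the 8 libraries of the Nr1d1 experiment, one column of points per library. The Y-linked points of Eif2s3y and Ddx3y are raised in the pair 1 libraries at CT0 and lie near 0.5, the value of a gene at 0 RPKM, in the other 6, and Cyp3a41a and Sult2a1 are low in the same 2 libraries.

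No gene of 12755 passed an adjusted p of 0.05 at CT0 (limma; 0% of the genes tested), and 577 genes (4.52%) had an unadjusted p under 0.05. limma voom on the recovered reads also called 0, of 11405 genes. What follows is therefore a description of genes that moved the same way in both pairs. Pair 1 and pair 2 shared a direction in 2271 genes that were higher in both labelled knockout livers (17.8%) and in 4203 that were lower in both (33.0%), while the remaining 6281 genes (49.2%) had opposite directions or no difference in 1 pair. Across genes, which are not independent replicates, the differences of pair 1 and pair 2 had a Pearson r of -0.011 and a Spearman rho of 0.030. The spread of the differences over genes was wider in pair 2 (SD 0.60 on the log2 scale) than in pair 1 (SD 0.30). Each difference is on the log2(RPKM + 0.5) scale, which understates the change of low genes. The median over all genes was -0.07 in pair 1 and -0.01 in pair 2. Another scaling of the libraries moved the split of shared directions, from 2271 higher and 4203 lower to 2791 and 3768 with median-of-ratios scaling and to 3352 and 3152 with quantile normalization.

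Of the 19 genes of the circadian clock that were tested, 16 went the same way in both pairs. In the livers labelled knockout 10 of the 19 were higher in both pairs (17.8% of all genes were) and 6 were lower in both (33.0% of all genes were). Their pair differences had a Pearson r of 0.66 over the 19 genes and 0.51 without Dbp, given as a description, since the genes share the libraries. None of the 19 passed the test. Genes that differed by at least 1 on the log2 scale in both pairs numbered 8 higher (0.0627% of the genes tested) and 13 lower (0.102%), and 22 genes differed by as much in opposite directions.

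**Figure D2:**
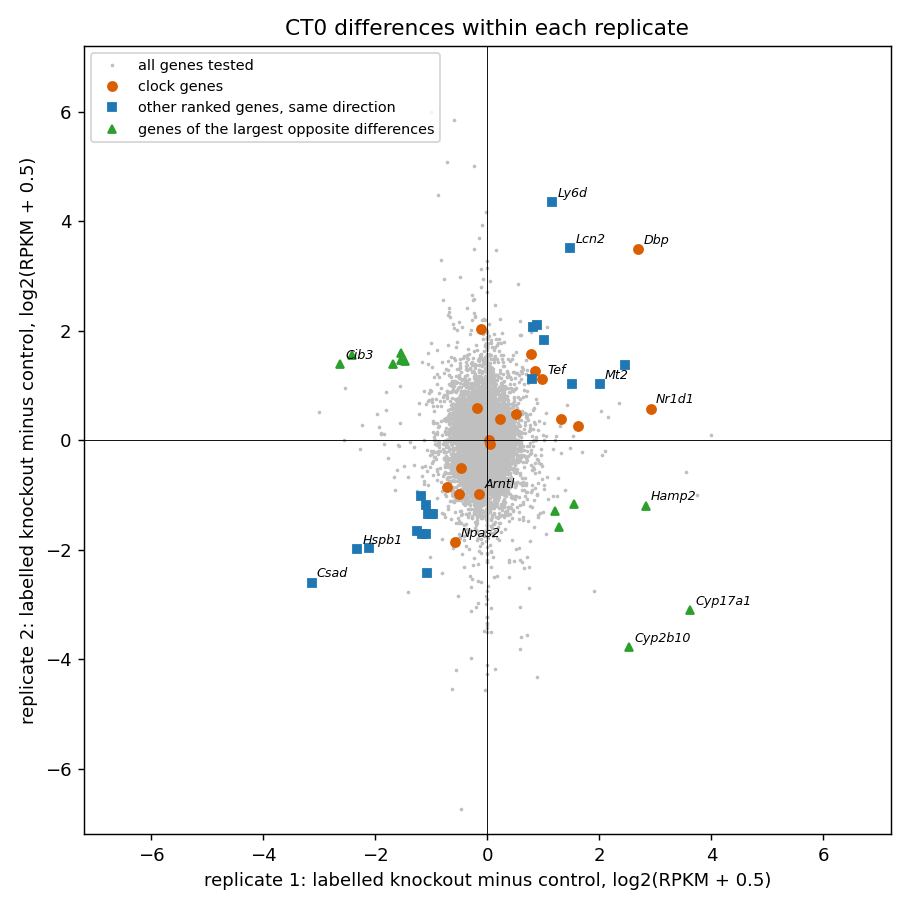
Labelled knockout minus control at CT0 on the log2(RPKM + 0.5) scale, with pair 1 on the x axis and pair 2 on the y axis, 1 point per gene tested. The cloud of all genes shows no common slope (r = -0.011), while Dbp lies far out in the upper right, Csad and Hspb1 in the lower left, and Cyp17a1 and Cyp2b10 in the lower right, where the pairs have opposite directions.

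Dbp, which encodes the D-box activator DBP, had the largest shared difference among the higher genes by the ranking used. It stood at 0.300 RPKM in the control and 4.65 RPKM in the labelled knockout of pair 1, and at 6.90 and 82.2 RPKM in pair 2. Both labelled knockout livers were thus above their controls, 15.5-fold in pair 1 and 11.9-fold in pair 2. The pair 1 control value rests on 21 recovered reads against 247, and the pair 2 values on 412 and 4750. The fitted log2 difference was 3.08 ± 0.28 (SE), and its adjusted p of 0.0689 missed the threshold (limma). Dbp passed in some other fits and not in others (limma). Its adjusted p was 0.0482 where only genes of at least 2 RPKM were tested and 0.0476 with median-of-ratios scaling. It was 0.000155 with the 4 CT0 libraries alone, a fit that leaves 1 residual degree of freedom. It was 0.857 with no filter on low values, 0.114 with a pseudocount of 1, 0.11 with quantile normalization and 0.07 with limma voom.

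Tef, the second D-box activator, stood at 7.03 and 14.3 RPKM in pair 1 and at 41.5 and 90.2 in pair 2, each time the control first. The 2.03-fold and 2.17-fold ratios of Tef were close to each other, and the fitted log2 difference was 1.04 ± 0.22 (SE; adjusted p = 0.877, limma). Hlf, the third of these activators, hardly differed within a pair, with 3.58 and 3.66 RPKM in pair 1 and 32.1 and 32.2 in pair 2, and its sign turned under 3 alternative fits. Nfil3, the repressor that competes at the D-box, stood at 8.61 and 8.88 RPKM in pair 1 and at 44.0 and 41.7 in pair 2, with opposite directions. The family was thus divided, with Dbp and Tef higher in both livers labelled knockout and Hlf and Nfil3 near their controls.

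Per1 and Per3, which encode repressors of BMAL1 and CLOCK, were higher in both livers labelled knockout. Per1 stood at 0.237 and 0.831 RPKM in pair 1 and at 3.20 and 8.40 in pair 2, 3.51-fold and 2.62-fold higher, with recovered reads of 9 and 24 and of 104 and 264. Per3 stood at 0.152 and 0.616 RPKM in pair 1 and at 0.710 and 3.09 in pair 2, 4.05-fold and 4.35-fold higher. The fitted log2 differences were 1.06 ± 0.20 (SE) for Per1 and 1.17 ± 0.32 (SE) for Per3, and neither passed the test. Per2 differed from its relatives in having no shared direction, with 1.65 and 1.40 RPKM in pair 1 and 2.79 and 4.42 in pair 2.

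Cry1 encodes a further repressor and is known as a target of the ROR element, which the window searched here did not hold. Cry1 was the lower one among the repressors. It stood at 6.61 RPKM in the control and 3.84 in the labelled knockout of pair 1, and at 22.9 and 12.3 in pair 2. The 2 ratios, 0.581 and 0.540, were close to each other, and the fitted log2 difference was -0.79 ± 0.18 (SE; adjusted p = 0.877, limma). Its paralog Cry2 was slightly higher in both pairs, at 2.77 and 3.32 RPKM in pair 1 and 21.0 and 27.4 in pair 2. Gm129, which encodes the repressor CHRONO, was listed at 0 RPKM in the control and at 0.739 in the labelled knockout of pair 1, and at 1.60 and 2.25 in pair 2. Bhlhe40, which encodes the E-box repressor DEC1, was also higher in both pairs, with 17.7 and 25.5 RPKM in pair 1 and 131 and 181 in pair 2. Bhlhe41, which encodes DEC2, had opposite directions, with 0.736 and 0.646 RPKM in pair 1 and 0.103 and 1.97 in pair 2. Of the 8 repressors tested, 5 were thus higher in both pairs (17.8% of all genes were) and 1, Cry1, was lower in both (33.0% of all genes were), with medians of 0.37 and 0.52 on the log2 scale.

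The activators of the loop lay below their controls. Arntl, which encodes BMAL1 and is the textbook target of REV-ERBα, stood at 8.92 RPKM in the control and 8.03 in the labelled knockout of pair 1, and at 39.7 and 19.9 in pair 2. The difference in pair 1 was small (-0.14 on the log2 scale) and that in pair 2 larger (-0.98), and the fitted value was -0.56 ± 0.31 (SE). Clock, which encodes the partner of BMAL1, stood at 4.56 and 3.06 RPKM in pair 1 and at 4.41 and 1.98 in pair 2, a fitted log2 difference of -0.75 ± 0.21 (SE). Npas2, which encodes a substitute for CLOCK, stood at 1.62 and 0.925 RPKM in pair 1 and at 9.36 and 2.21 in pair 2, a fitted log2 difference of -1.22 ± 0.49 (SE). All 3 activators were lower in both pairs (33.0% of all genes were), with medians of -0.51 and -0.99, and none passed the test.

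The receptors that share the ROR element went in both directions. Nr1d2, which encodes the paralog REV-ERBβ, stood at 0.674 and 3.12 RPKM in pair 1 and at 3.52 and 4.31 in pair 2, higher in both livers labelled knockout as was Nr1d1 itself. Rora stood at 6.41 and 4.50 RPKM in pair 1 and at 6.83 and 4.63 in pair 2, lower in both. The fitted log2 differences were 0.94 ± 0.37 (SE) for Nr1d2 and -0.49 ± 0.20 (SE) for Rora, both with an adjusted p of 0.877 (limma). Rorb was too low to be tested. Of 13 enzymes that modify or degrade clock proteins, 8 were lower in both pairs (33.0% of all genes were). Only 1 was higher in both (17.8% of all genes were). The lower ones numbered 5 with median-of-ratios scaling, beside 3768 of all 12755 genes. They numbered 4 with quantile normalization, beside 3152 of all genes.

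**Figure D3:**
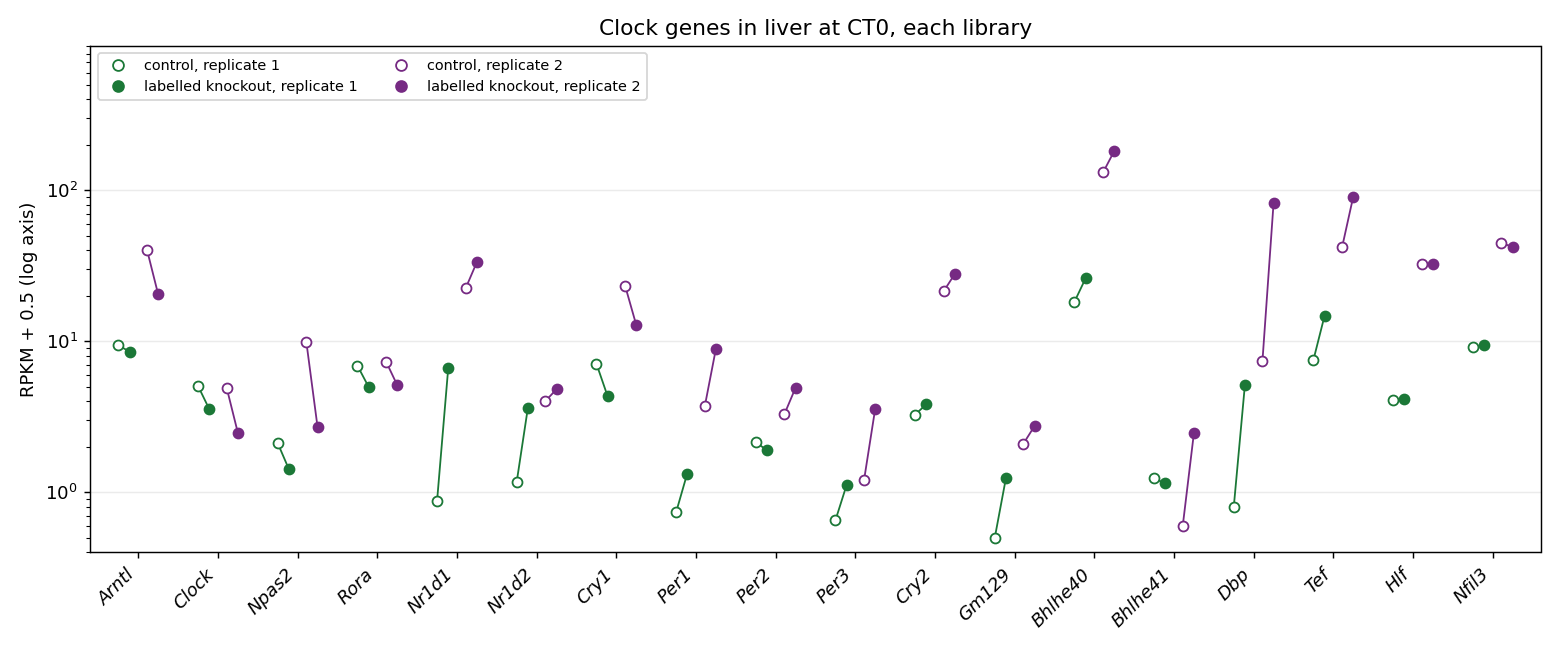
RPKM + 0.5 (log axis) of 18 clock genes in each of the 4 libraries at CT0, with a line joining the control (open) to the labelled knockout (filled) of the same replicate. The lines of Dbp, Tef, Per1, Per3, Nr1d1 and Nr1d2 slope upwards in both pairs, and those of Clock, Npas2, Rora and Cry1 slope downwards in both.

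Outside the clock, the ranking picked the 12 genes in each direction with the largest value of the smaller pair difference among genes of at least 2 RPKM on average. The rule used the comparison itself, so the values of these genes are a description and are not support for a difference. Those higher in both livers labelled knockout were Dbp, Lcn2, AC092752.1, Ly6d, Mt2, Gm10719, Hbq1b, Tef, Pyroxd2, Per1, Hbb-b2 and Gnat1, and the last of them had a smaller pair difference of 0.80 against 0.78 for the next gene, Hbb-b1. Lcn2, an iron-binding protein of the acute phase response, stood at 2.89 and 8.95 RPKM in pair 1 and at 83.4 and 954 in pair 2. Mt2, a metal-binding metallothionein, stood at 0.985 and 5.47 RPKM in pair 1 and at 201 and 408 in pair 2. Ly6d, a lymphocyte antigen, was much further apart in pair 2 (4.68 and 105 RPKM) than in pair 1 (0.528 and 1.79 RPKM). Pyroxd2, an oxidoreductase, stood at 3.83 and 7.45 RPKM in pair 1 and at 10.98 and 49.03 in pair 2. Apart from Dbp, Tef and Per1, the higher genes thus included an acute phase protein and a pair of globin genes, Hbq1b and Hbb-b2, whose marker lists are given below.

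The genes lower in both livers labelled knockout by the same rule were Csad, Hspb1, Gm13247, Gm13248, Camk1d, Plekhb1, Loxl4, Gsta1, Gsta4, Phospho1, Foxn3 and Thra, with smaller pair differences from -2.60 to -0.97 and the next gene, Cox7a1, at -0.94. Csad, which encodes the decarboxylase that makes hypotaurine for taurine synthesis, stood at 99.6 RPKM in the control and 10.9 in the labelled knockout of pair 1, and at 244 and 39.7 in pair 2. Its ratios were 0.109 and 0.163, and the fitted log2 difference was -2.87 ± 0.46 (SE; adjusted p = 0.877, limma). Csad passed in the fit of the 4 CT0 libraries alone (adjusted p = 0.000155, limma), which leaves 1 residual degree of freedom. Hspb1, a small heat shock protein, stood at 12.5 and 2.09 RPKM in pair 1 and at 74.6 and 18.3 in pair 2. Its ratios were 0.168 and 0.245, and the fitted log2 difference of -2.16 ± 0.22 (SE) had an adjusted p of 0.0703 (limma), the nearest to the threshold after Dbp. Hspb1 and Csad were thus lower in both livers labelled knockout.

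The other lower genes had smaller differences. Camk1d, a calcium-dependent kinase, stood at 69.6 and 30.6 RPKM in pair 1 and 72.6 and 21.7 in pair 2. Foxn3, a forkhead repressor, stood at 18.2 and 8.79 RPKM in pair 1 and 16.5 and 6.20 in pair 2. Camk1d and Foxn3 were lower in both livers labelled knockout, as were the genes that follow. Loxl4, a lysyl oxidase of the extracellular matrix, stood at 2.76 and 1.03 RPKM in pair 1 and 14.3 and 4.01 in pair 2. Gsta4, a glutathione transferase that clears products of lipid peroxidation, stood at 34.2 and 16.0 RPKM in pair 1 and 224 and 88.1 in pair 2. Gsta1 and the predicted genes Gm13247 and Gm13248 have close relatives in the genome, and reads shared between such copies make their values uncertain. All 24 ranked genes kept their direction in both pairs under the other scalings and with transcripts summed, as did the 20 with recovered reads. These genes were picked for large differences, so a change of sign was unlikely from the outset. Pseudocounts and filters cannot change a direction.

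The list of heat shock and cold-inducible genes holds chaperones and their partners, the factor gene Hsf1 and the cold-inducible genes Cirbp and Rbm3, which encode RNA-binding proteins. Of its 22 members tested, 17 were lower in both livers labelled knockout (33.0% of all genes were), 1 was higher, and 9 had an unadjusted p under 0.05 (4.52% of all genes had), with medians of -0.39 in pair 1 and -0.30 in pair 2. Hsp90aa1, the inducible form of the chaperone HSP90, stood at 50.6 and 30.8 RPKM in pair 1 and at 122 and 52.3 in pair 2. Hsph1, a partner of HSP70, stood at 6.52 and 2.72 RPKM in pair 1 and at 75.7 and 44.9 in pair 2. Hspa1b, an inducible HSP70, stood at 4.65 and 1.12 RPKM in pair 1 and at 35.8 and 22.1 in pair 2, and its near-identical neighbour Hspa1a at 2.91 and 0.717 and at 17.1 and 12.2, and reads of these copies may be split between them. Hsf1, which encodes the factor that induces heat shock genes, had opposite directions in the pairs, as had Cirbp (-0.02 and 0.44 on the log2 scale) and Rbm3 (-0.69 and 1.20). The count of members lower in both pairs was 16 with median-of-ratios scaling and 18 with quantile normalization. Of all 12755 genes, 3768 and 3152 were lower in both with these scalings. Pseudocounts cannot change the count of members. With recovered reads it was 12 of 16 members, beside 3351 of 11405 genes.

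Genes of fatty acid oxidation were more often higher than lower in both pairs. Of 42 genes of fatty acid oxidation and ketogenesis, 21 were higher in both pairs (17.8% of all genes were) and 5 lower (33.0%). The medians were 0.18 and 0.07 on the log2 scale. With quantile normalization 17 were higher and 4 lower, beside 3352 and 3152 of all 12755 genes, and the median of pair 2 turned to -0.02. Only 16 of these genes had recovered reads. With those reads 4 were higher and 1 lower in both pairs, beside 2668 and 3351 of 11405 genes, and the pair 2 median was -0.29. Decr1, a reductase of unsaturated fatty acid oxidation, stood at 48.1 and 68.4 RPKM in pair 1 and at 197 and 306 in pair 2. Of 21 genes of fatty acid synthesis, 7 were higher in both pairs (17.8% of all genes were) and 0 lower (33.0% of all genes were). Fads2, a fatty acid desaturase, stood at 154 and 228 RPKM in pair 1 and 953 and 1371 in pair 2. Lpl, the lipase that frees fatty acids from lipoproteins and is low in healthy adult liver, stood at 2.98 and 4.83 RPKM in pair 1 and 7.42 and 18.4 in pair 2. Apoa4, an apolipoprotein, stood at 22.4 and 117 RPKM in pair 1 and 523 and 838 in pair 2. Decr1, Fads2, Lpl and Apoa4 were thus higher in both livers labelled knockout, each with an adjusted p of 0.877 (limma).

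Of 30 genes of bile acid synthesis and transport, 5 were higher and 9 lower in both pairs, near the shares over all genes (17.8% and 33.0%). Cyp7a1, which encodes the enzyme that sets the pace of bile acid synthesis, stood at 9.64 and 14.8 RPKM in pair 1 and at 54.6 and 3.40 in pair 2, higher in the labelled knockout of pair 1 and lower in that of pair 2. Among 29 nuclear receptors of liver, 13 were lower in both pairs (33.0% of all genes were) and 4 higher (17.8%). With quantile normalization 10 members were lower in both, beside 3152 of all 12755 genes. Esr1, the estrogen receptor, stood at 2.67 and 1.36 RPKM in pair 1 and 8.96 and 3.21 in pair 2, and Nr3c1, the glucocorticoid receptor, at 8.50 and 7.02 and at 16.7 and 8.49. Nr0b2, which encodes the corepressor SHP of bile acid signalling, was higher in both pairs, at 12.1 and 18.9 RPKM in pair 1 and 67.3 and 97.8 in pair 2. Of 27 drug and organic ion transporters, 13 were lower and 2 higher in both pairs, against 33.0% and 17.8% of all genes. Among 46 phase II conjugation enzymes the glutathione transferases were divided: Gstm2 stood at 76.5 and 127.0 RPKM in pair 1 and 306 and 656 in pair 2, higher in both, against the lower Gsta4.

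Several lists had medians of opposite sign in the pairs. Female-biased liver genes (25 tested) had a median log2 difference of 0.48 in pair 1 and -2.21 in pair 2, and male-biased liver genes (23 tested) -0.59 and 0.99. In pair 2 the control had 1500.15 RPKM of the female-biased sulfotransferase gene Sult2a1 and the labelled knockout 80.9, and Cyp3a41a, a female-biased cytochrome P450, stood at 5451 and 462 RPKM. The male-biased Cyp4a12a stood at 2.23 RPKM in that control and 157 in that labelled knockout, and Hsd3b5, a male-biased steroid enzyme, at 4.04 and 154. Both libraries of pair 2 nevertheless had a Y-linked sum of 0.00 RPKM, so the Y-linked genes did not differ between them. Of 44 xenobiotic receptors and cytochromes P450, 6 were higher and 5 lower in both pairs, against 17.8% and 33.0% of all genes, with medians of 0.29 and -0.25. Genes of the unfolded protein response (25 tested) had medians of -0.40 and 0.33, with 0 higher and 4 lower in both, against the same shares of all genes.

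Acute phase and blood cell genes were further apart in pair 2. Of 32 acute phase genes, 10 were higher and 3 lower in both pairs, against 17.8% and 33.0% of all genes, with medians of -0.15 and 0.71. Orm2, an acute phase glycoprotein, stood at 53.8 and 59.9 RPKM in pair 1 and at 108 and 1203 in pair 2, and Serpina3n, a protease inhibitor of the same response, at 64.5 and 102 and at 501 and 944. Of the erythroid markers, 4 of 5 were higher in both pairs (17.8% of all genes were), and their summed RPKM was 1003.02 and 1564.63 in pair 1 and 3087.87 and 11943.05 in pair 2. The neutrophil markers summed to 1.62 and 1.72 RPKM in pair 1 and to 16.17 and 44.65 in pair 2, with S100a8 at 0 in the control and 8.49 in the labelled knockout of pair 2. Of 12 markers of Kupffer cells or macrophages, 9 were higher in both pairs (17.8% of all genes were), and their sum was 181.98 and 186.34 RPKM in pair 1 and 770.61 and 1360.54 in pair 2. The part of blood cells in the Lcn2, Ly6d and globin differences was not tested, and in tissue RNA more cells of a type and more RNA per cell cannot be told apart. The 12 hepatocyte markers were present in every library, with sums of 69884 and 63323 RPKM in pair 1 and 429354 and 441934 in pair 2.

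**Figure D4:**
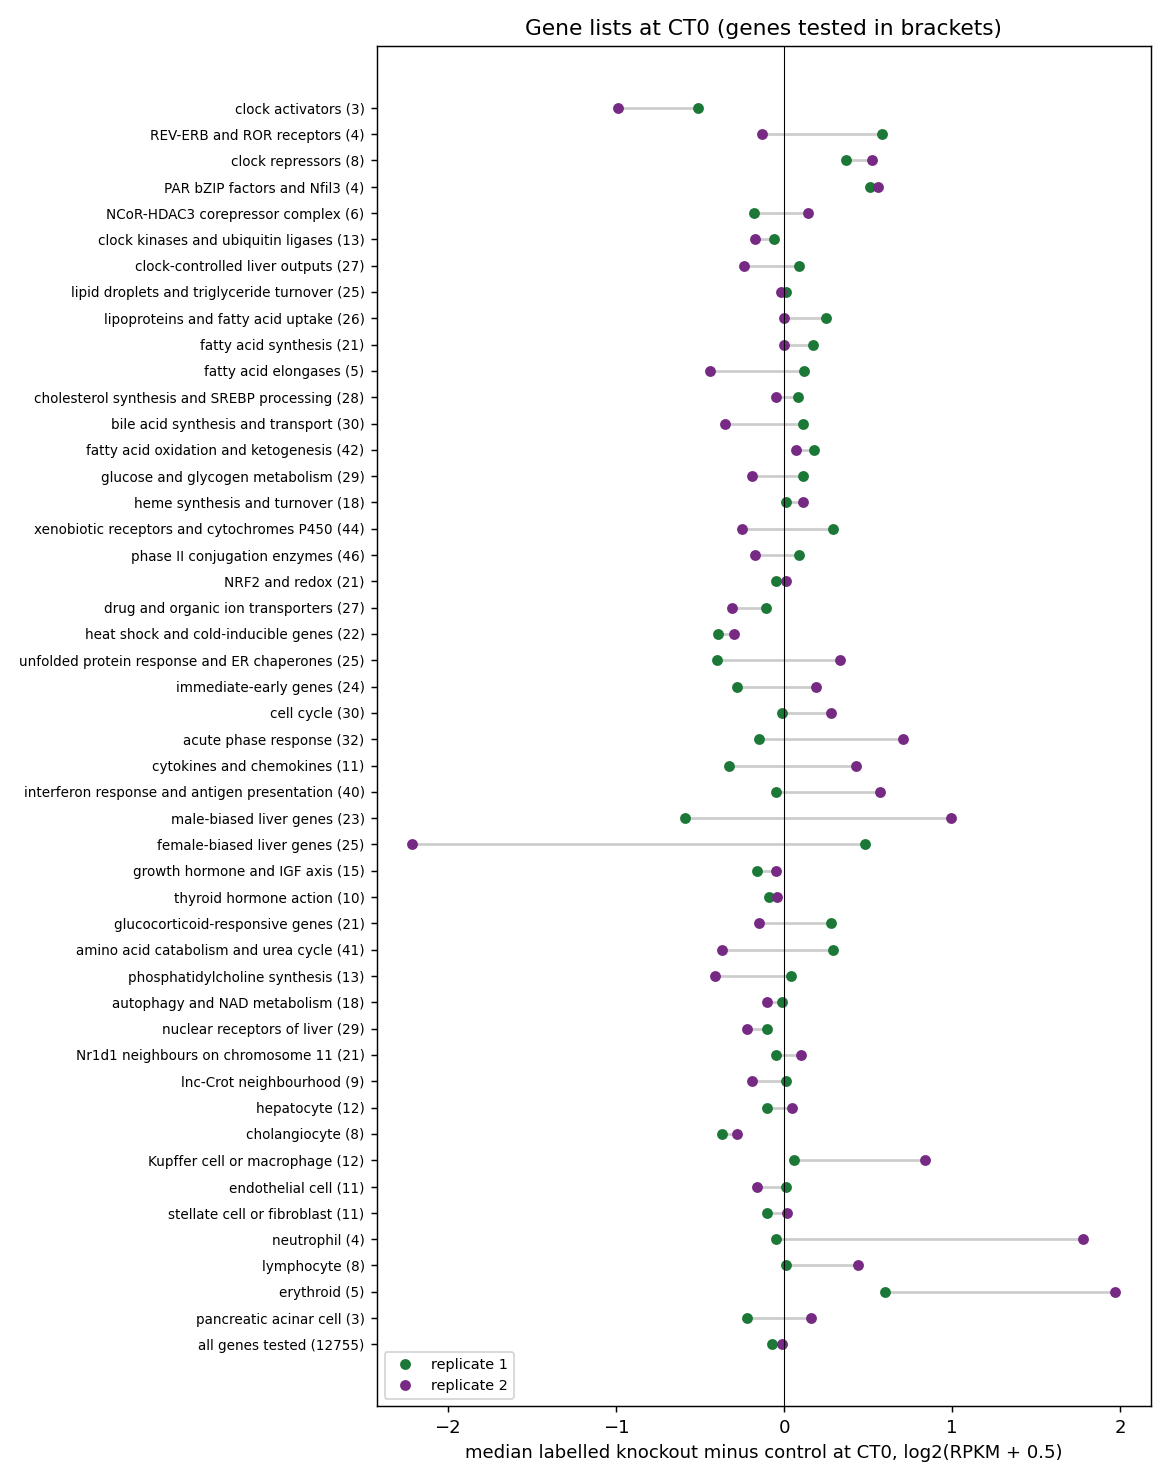
Median difference, labelled knockout minus control at CT0 on the log2(RPKM + 0.5) scale, of each gene list in pair 1 (green) and pair 2 (purple), with the number of genes tested in brackets. Clock activators and the heat shock and cold-inducible genes lie left of 0 in both pairs, clock repressors right of 0 in both, and female-biased genes have their points at 0.48 and -2.21.

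Livers taken at CT12, the opposite phase of the day, gave a further comparison of the same kind, which shares no library with that at CT0. Arntl had its low phase there, and it stood at 0.597 RPKM in the control and 8.00 in the labelled knockout of pair 1, and at 1.30 and 19.3 in pair 2. Arntl was thus higher in both livers labelled knockout at CT12 (adjusted p = 0.0403, limma) and lower in both at CT0. The difference at CT12 minus that at CT0 was 3.77 ± 0.43 (SE; unadjusted p = 2.71e-05, adjusted p = 0.173, limma), and Arntl passed with limma voom on recovered reads (adjusted p = 0.0404). No gene of 12755 passed this test of the difference between times (0% of those tested), and 538 had an unadjusted p under 0.05. In pair 1 the Y-linked sum was 20.56 and 19.10 RPKM at CT0 and 0.17 and 0.01 RPKM at CT12, the control first. Time and this split cannot be told apart in that pair. Dbp at CT12 stood at 33.9 and 29.3 RPKM in pair 1 and at 233 and 260 in pair 2, so its control level at CT12 was far above that at CT0 and the labelled knockout was near it. Nr1d1 at CT12 stood at 3.45 and 11.1 RPKM in pair 1 and at 33.4 and 28.4 in pair 2, and was not lower in both labelled knockout livers at that time either.

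The series also compares liver of mice that lack Bmal1 in liver only with C57BL/6 control liver at CT0, at the same age and in the same housing, with 3 libraries a group and no library in common with those above. The driver of that deletion is not given in the sources used here, and the Nr1d1 label names no tissue. In a fit of all 20 RNA-seq libraries, the Nr1d1 difference minus the Bmal1 difference passed in 19 of 12325 genes (0.154%, limma), 8 of them higher and 11 lower in this sense. Cry1 had log2 differences of -0.79 in the Nr1d1 and 1.73 in the Bmal1 experiment, which differed by -2.51 ± 0.17 (SE; adjusted p = 2.97e-06, limma). Cry1 was thus lower in the livers labelled Nr1d1 knockout and higher in the Bmal1 knockout livers. Dbp had 3.08 and 0.50 (adjusted p of the difference = 0.0362, limma), and Cyp2a5, a cytochrome P450 under clock control, had 0.80 and -1.34 (adjusted p = 0.0151, limma). Phospho1 and Loxl4 of the ranked genes were among the 19 too, both lower in the Nr1d1 and higher in the Bmal1 experiment. The count depended on single libraries, with 288 genes without the labelled knockout of pair 1, 186 without the control of pair 1, and 5 without either library of pair 2. Without a single Bmal1 library it lay as low as 9. The Bmal1 livers had Y-linked sums between 60.92 and 75.38 RPKM, unlike the livers of pair 2, and the part of this in the 19 genes was not tested.

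**Figure D5:**
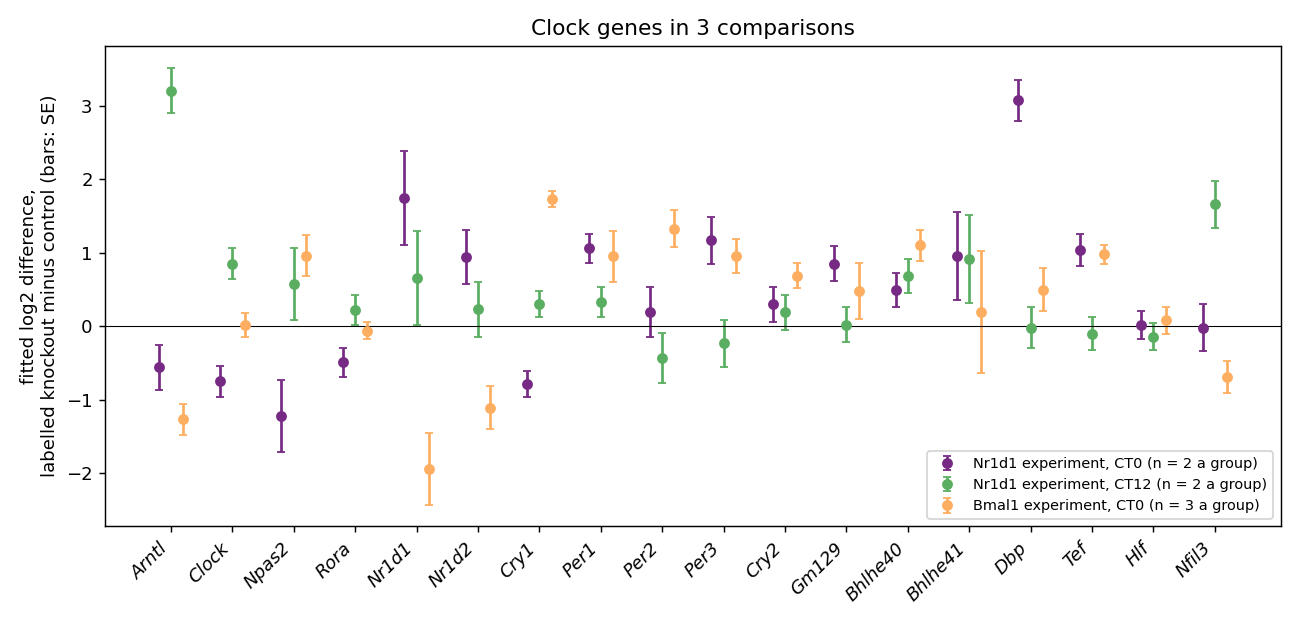
Fitted log2 difference, labelled knockout minus control, of 18 clock genes in the Nr1d1 experiment at CT0 (purple) and CT12 (green, 2 libraries a group each) and in the Bmal1 experiment at CT0 (orange, 3 libraries a group), with bars of 1 SE. The purple and green points of Arntl lie on opposite sides of 0, as do the purple and orange points of Cry1, and the purple point of Dbp at 3.08 is the highest of that gene.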

How the data were processed

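Total liver RNA was sequenced from TruSeq libraries, which do not mark strand, and the authors deposited RPKM for 46585 transcripts in each of 20 RNA-seq libraries. The submitters' processing notes name Bowtie, TopHat2, bedtools 2.19.1 and mm9. The transcript with the highest mean log2(RPKM + 0.5) stood for its gene symbol. limma 3.58.1 (R 4.3.3) was fitted to log2(RPKM + 0.5) of the 8 Nr1d1 libraries, with group means and the replicate number as a block, for the 12755 genes whose RPKM averaged 0.5 or more, and p-values were adjusted by Benjamini and Hochberg. The labels describe pairs of mice. Replicate 2 libraries of all groups, at both times, deviated together from their group means (correlations of 0.82 to 0.88). These libraries alone are described as paired-end, so the correlations show a shared replicate difference and not a pairing of mice. The fit was checked on simulated data with the same noise for every gene. That check does not measure power or error rates in the real data. With 2 libraries a group, p-values rest on little replication, and the labels do not say that the pairs at CT0 and CT12 shared more than a number. Whole reads were recovered from the RPKM steps for 92.9% of 18967 transcripts (tolerance 0.05 of a read), covering 89.4% of the genes tested, and were used for depth and in an alternative fit with limma voom. The text names the clock genes, list members, and 12 genes per direction ranked by the smaller pair difference at a mean RPKM of at least 2, plus examples within lists chosen after their values were seen. The 38 pathway and 10 marker lists, the genes and the tests were chosen with earlier results of these data known. Some genes of the lists are counted but not reported here by name.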

Additional observations from a re-analysis of the deposited data

Results flagged for a closer look

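Genes of 2 kinds drew attention because their differences went opposite ways in 2 comparisons. For 14 of 71 genes named by rule, both pairs had one direction at CT0 and both had the other at CT12, each by at least 0.1 on the log2 scale. The same held for 553 of the 12755 genes tested (4.34%), and the genes named by rule were chosen with results of these data known. The difference at CT12 minus that at CT0, on the log2 scale, was 3.77 for Arntl, 1.60 for Clock, 1.80 for Npas2, 0.71 for Rora and 1.09 for Cry1, so these 5 clock genes were lower in the livers labelled knockout at CT0 and higher at CT12. It was 2.51 for Camk1d, 3.09 for Loxl4, 0.96 for the corepressor gene Ncor1, 1.62 for Hspa1b and 0.70 for Stat5b, which had the same order. The reverse order, higher at CT0 and lower at CT12, gave -1.24 for Srebf1, -0.92 for Cpt1a, -1.02 for Pck1 and -1.76 for Alas1, the first enzyme of heme synthesis. None of the 14 passed the test of the difference between times, with adjusted p-values from 0.173 (Arntl) to 0.964 (limma). In pair 1 the 2 times also differed in Y-linked genes, and the part of this in the 14 genes was not tested.

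The other kind is the set of 19 genes whose CT0 difference was not the same in the Nr1d1 and the Bmal1 experiment by the test of that difference. Groups of 2 or 3 libraries were too small to be searched for single libraries that stand apart.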

How the results depend on the processing

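The number of genes that passed at CT0, which was 0, became 2 with genes of at least 2 RPKM (Dbp and Hspb1), 1 with median-of-ratios scaling (Dbp), 6 with the 4 CT0 libraries alone (Dbp, Csad, Hspb1, Gm13247, AC092752.1 and Lcn2), and 1 (Dbp) each with all 20 libraries and with a replicate block within each time, both chosen after seeing the data. The fit of the 4 CT0 libraries alone leaves 1 residual degree of freedom. Without the replicate block the number that passed was 0, with 0 genes at an unadjusted p under 0.05. limma voom on recovered reads gave 0, with 1045 at an unadjusted p under 0.05. Leaving out 1 library gave 0 to 3, with Orm2, Dbp and Derl3 without the labelled knockout of pair 1 and 1 gene without its control. The 21 genes past 1 on the log2 scale in both pairs became 56 with a pseudocount of 0.1, 12 with 1 and 102 with recovered reads. The median over all genes was 0.00 with quantile normalization and -0.15 to 0.06 with a library left out. The test between times, which called 0, called 3 with recovered reads (Arntl, D0H4S114 and Loxl4) and 0 to 4 with a library left out, and the count against the Bmal1 experiment was 5 to 288. Of 73 named genes, 44 had no change of sign in any alternative and 29 had one. The causes were not tested. Some low genes of pair 1 rested on few recovered reads, such as Per1 with 9 in the control.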

Other observations

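Some of the largest differences at CT0 had opposite directions in the pairs, 12 genes higher and 10 lower in the labelled knockout of pair 1 among those past 1 on the log2 scale in both. Cyp17a1, an enzyme of steroid synthesis, stood at 1.50 RPKM in the control and 24.1 in the labelled knockout of pair 1, and at 445 and 51.2 in pair 2. Cyp2b10, the cytochrome P450 known as a target of the receptor CAR, stood at 0.558 and 5.59 RPKM in pair 1 and at 274 and 19.4 in pair 2. Hamp2, a relative of the iron hormone hepcidin, stood at 39.0 and 279 RPKM in pair 1 and at 8061 and 3510 in pair 2. In the other direction, Elovl3, a fatty acid elongase with a strong rhythm in liver, stood at 214 and 65.9 RPKM in pair 1 and at 3.23 and 9.22 in pair 2, and Cdkn1a, an inhibitor of the cell cycle, at 1.57 and 0.207 and at 7.04 and 20.4. The sex-biased lists had opposite signs in the pairs too. Their medians were 0.48 and -2.21 for female-biased genes and -0.59 and 0.99 for male-biased genes. The part of this split in the genes named here was not tested.

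Amino acid catabolism and the urea cycle, with 41 genes tested, had medians of 0.29 in pair 1 and -0.37 in pair 2, with 7 genes higher and 6 lower in both, against 17.8% and 33.0% of all genes. Of 40 genes of the interferon response and antigen presentation, 10 were higher and 2 lower in both, against the same shares of all genes, with medians of -0.05 and 0.57. Those counts were 18 and 1 with median-of-ratios scaling, beside 2791 and 3768 of all 12755 genes. With quantile normalization they were 20 and 1, beside 3352 and 3152 of all genes. Genes that mark bile duct cells were lower in both pairs in 4 of 8, with 33.0% of all genes lower, and higher in 0. With transcripts summed 3 were lower in both, beside 4463 of 13335 genes. The summed RPKM of these markers was 48.22 in the control and 29.39 in the labelled knockout of pair 1. In pair 2 it was 259.77 and 274.59, so the sums had opposite directions.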
